A study of Mus musculus with 10 samples.

Results

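The p53 target genes Cdkn1a, Mdm2, Ccng1, Trp53inp1, Bbc3, Bax, Sesn2, Btg2, Phlda3 and Zmat3 were followed across mouse embryonic stem (ES) cell lines lacking Tet1, Tet2 or both. The genes were chosen by name, with earlier results of these data known. Every array probe that carries one of the 10 symbols was taken, which gave 13 of 39429 probes and 10 of the 20657 genes tested. All 10 genes were measured, and all 13 probes were well above background in 18 of 18 labelled channels, so the filter on dim probes removed none of them. The groups were 4 lines without Tet1 and Tet2 (DKO: 51 and 61 male, 60 and 59 female), 1 male line without Tet2 (T2KO 16), 2 male lines without Tet1 (T1KO 99 and 65) and 4 wild-type lines (WT: 6 and 92 male, 7 and 94 female). All of them came from a C57/BL/6 mixed background, grew with LIF on irradiated feeder cells and were preplated to take the feeders away before RNA was isolated. Their RNA was hybridised on 10 two-colour arrays, on which each DKO line (Cy5) met a WT line of its own sex (Cy3) and T2KO 16 (Cy5) met T1KO 65 (Cy3). T2KO is known from a single line, no knockout line was measured in both dyes, and no age, passage or treatment is given for any line.

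p53, encoded by Trp53, is a transcription factor that is held at a low level by the ubiquitin ligase Mdm2 and accumulates after DNA damage and other stress. It binds DNA as a tetramer, at elements made of paired half-sites, and raises genes that stop the cell cycle, favour apoptosis, limit growth signalling or feed back on p53 itself. Mouse ES cells hold abundant p53 and cycle rapidly, with little of a G1 checkpoint. Tet1 and Tet2 oxidise 5-methylcytosine to 5-hydroxymethylcytosine in DNA.

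Promoter windows from RefSeq (build GRCm38.p6, 300 bases around each annotated start) were found for 8 of the 10 genes, in 11 windows. The p53 half-site was searched as an exact match to RRRCWWGYYY (R is A or G, W is A or T, Y is C or T), which reads the same on both strands. It was present in 4 of these 11 windows (36.4%) and in 2745 of all 32851 RefSeq promoter windows (8.36%). The windows that hold it are printed to show where it lies, with the second Cdkn1a start, which has none, beside the first. The sequences run 5′ to 3′ on the gene's strand, and capitals mark each exact match. A half-site with a mismatch stays in lower case, and whether matches form a paired element was not examined.
Cdkn1a, upstream start, chr17:29090729-29091028, plus strand: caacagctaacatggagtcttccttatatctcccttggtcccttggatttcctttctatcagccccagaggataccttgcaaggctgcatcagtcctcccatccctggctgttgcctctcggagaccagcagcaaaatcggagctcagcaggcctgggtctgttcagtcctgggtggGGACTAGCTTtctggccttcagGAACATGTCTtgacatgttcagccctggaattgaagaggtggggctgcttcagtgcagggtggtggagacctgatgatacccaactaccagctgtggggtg
Cdkn1a, downstream start, chr17:29093519-29093818, plus strand: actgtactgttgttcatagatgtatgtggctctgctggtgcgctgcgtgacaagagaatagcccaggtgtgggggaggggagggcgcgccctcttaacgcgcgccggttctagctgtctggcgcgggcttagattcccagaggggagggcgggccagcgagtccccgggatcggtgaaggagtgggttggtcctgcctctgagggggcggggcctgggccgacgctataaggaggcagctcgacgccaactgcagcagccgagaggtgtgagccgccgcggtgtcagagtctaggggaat
Mdm2, chr10:117710709-117711008, minus strand: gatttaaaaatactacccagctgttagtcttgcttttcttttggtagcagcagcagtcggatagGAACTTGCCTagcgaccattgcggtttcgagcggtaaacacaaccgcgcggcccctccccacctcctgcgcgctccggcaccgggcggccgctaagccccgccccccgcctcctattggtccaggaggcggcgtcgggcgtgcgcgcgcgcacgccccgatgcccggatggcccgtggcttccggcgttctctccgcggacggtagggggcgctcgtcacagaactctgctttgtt
Ccng1, chr11:40755237-40755536, minus strand: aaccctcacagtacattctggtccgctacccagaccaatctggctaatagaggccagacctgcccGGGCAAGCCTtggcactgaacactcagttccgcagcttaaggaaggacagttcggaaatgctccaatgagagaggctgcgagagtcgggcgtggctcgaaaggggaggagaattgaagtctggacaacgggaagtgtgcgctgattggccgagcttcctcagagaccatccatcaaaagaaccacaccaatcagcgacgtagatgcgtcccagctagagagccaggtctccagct
Bax, chr7:45466849-45467148, minus strand: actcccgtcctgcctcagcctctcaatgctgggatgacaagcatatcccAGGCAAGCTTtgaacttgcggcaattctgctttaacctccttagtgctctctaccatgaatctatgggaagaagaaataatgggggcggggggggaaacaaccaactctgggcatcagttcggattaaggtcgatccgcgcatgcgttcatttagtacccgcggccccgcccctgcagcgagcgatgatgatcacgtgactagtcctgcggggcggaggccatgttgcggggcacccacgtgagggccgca
Counted from 1 at the 5′ end of the window, the matches lie at 178 to 187 and 200 to 209 in the upstream Cdkn1a window, 65 to 74 in Mdm2, 66 to 75 in Ccng1 and 50 to 59 in Bax. The 3 Bbc3 windows and those of Sesn2, Btg2 and Phlda3 hold no match of these letters. Trp53inp1 and Zmat3 were not matched to a window.

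Cdkn1a was read by 3 probes and Trp53inp1 by 2, whereas each other gene had 1. The first 30 bases of the 3 Cdkn1a probes are printed because the probes did not give the same ratios; positions are those of the 60-base probes on mm9, as the array files give them.
A_51_P363947, chr17:29237377-29237436, plus strand: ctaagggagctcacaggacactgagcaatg
A_55_P1986282, chr17:29227986-29228045, plus strand: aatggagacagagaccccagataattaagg
A_55_P1976204, chr17:29235299-29235358, plus strand: tggggtagtttccatagtgacccgggtcct
The first of them was annotated to NM_007669, was spotted 10 times on each array and was the brightest, and it stands for Cdkn1a below. The other genes were read at chr10:117126010-117126069 (Mdm2), chr11:40562427-40562486 (Ccng1), chr4:11101174-11101233 (Trp53inp1), chr7:16903403-16903462 (Bbc3) and chr7:52717122-52717181 (Bax). The remaining probes lay at chr4:132048858-132048917 (Sesn2), chr1:135972094-135972153 (Btg2), chr1:137665642-137665701 (Phlda3) and chr3:32233831-32233890 (Zmat3). Exons and UTRs on mm9 were not annotated here.

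Levels are normalized log2 intensities, and a log2 ratio is the level of the Cy5 line minus that of the Cy3 line. No gene spot was saturated on any array. Repeat arrays, which carried RNA of the same lines and were averaged, differed by a median of 0.017 to 0.041 (log2) and at most 0.11 over the 10 genes. Each repeat lay on the same slide and in the same dyes as the array it repeated. These differences therefore leave out any error between slides or dyes. The spots of the main Cdkn1a probe had an SD of 0.020 to 0.079 in their log2 ratio within an array. Tet1 and Tet2 fitted the labels: the log2 ratio in DKO over WT was -2.11 for Tet1 (SE 0.0749, limma adjusted p = 0.00704) and -2.10 for Tet2 (SE 0.187, limma adjusted p = 0.022). All 10 ES cell markers, 23 of 24 feeder fibroblast markers and 8 of 10 primitive endoderm markers were well above background in every labelled channel. Feeder and primitive endoderm markers were therefore present in the RNA of every line, and in bulk RNA fewer cells of a type and less RNA per cell cannot be told apart. Male DKO and WT lines, female DKO and WT lines, and the T2KO and T1KO lines each lay on 1 of 3 slides, so sex, and single against double knockout, cannot be told apart from the slide. All DKO and T2KO RNA was in Cy5 and all T1KO and WT RNA in Cy3. Dye and genotype therefore cannot be told apart in DKO over WT, in T2KO over T1KO or in T2KO minus male WT.

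None of the p53 target genes differed between DKO and WT lines past the threshold of an adjusted p of 0.05. The count was 0 of 10, against 933 of 20657 genes tested (4.52%), of which 580 rose (2.81%) and 353 fell (1.71%). At an unadjusted p under 0.05 the count was 1, Bax, against 5407 genes (26.2%). That member count was 3 with sex as a covariate, against 5260 genes, and 6 with median centring, against 9469. In the log ratios of the scanner software it was 0, against 4706 genes. The log2 ratio was positive for 6 and negative for 4 genes, where 53.4% of all genes were positive. Its median was 0.037, against 0.016 over all genes. With each array centred on its own median in place of loess, all 10 were positive (0.16 to 0.78), the median over all genes was 0.19, and Mdm2, Trp53inp1 and Btg2 passed the threshold among 6700 genes. The count of genes past the threshold was 0 when any 1 of the 4 pairs was left out, and 0 with sex as a covariate. None of the 10 had all 4 DKO lines on one side of all 4 WT lines (7.53% of all genes lay wholly above and 5.97% wholly below).

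**Figure D1:**
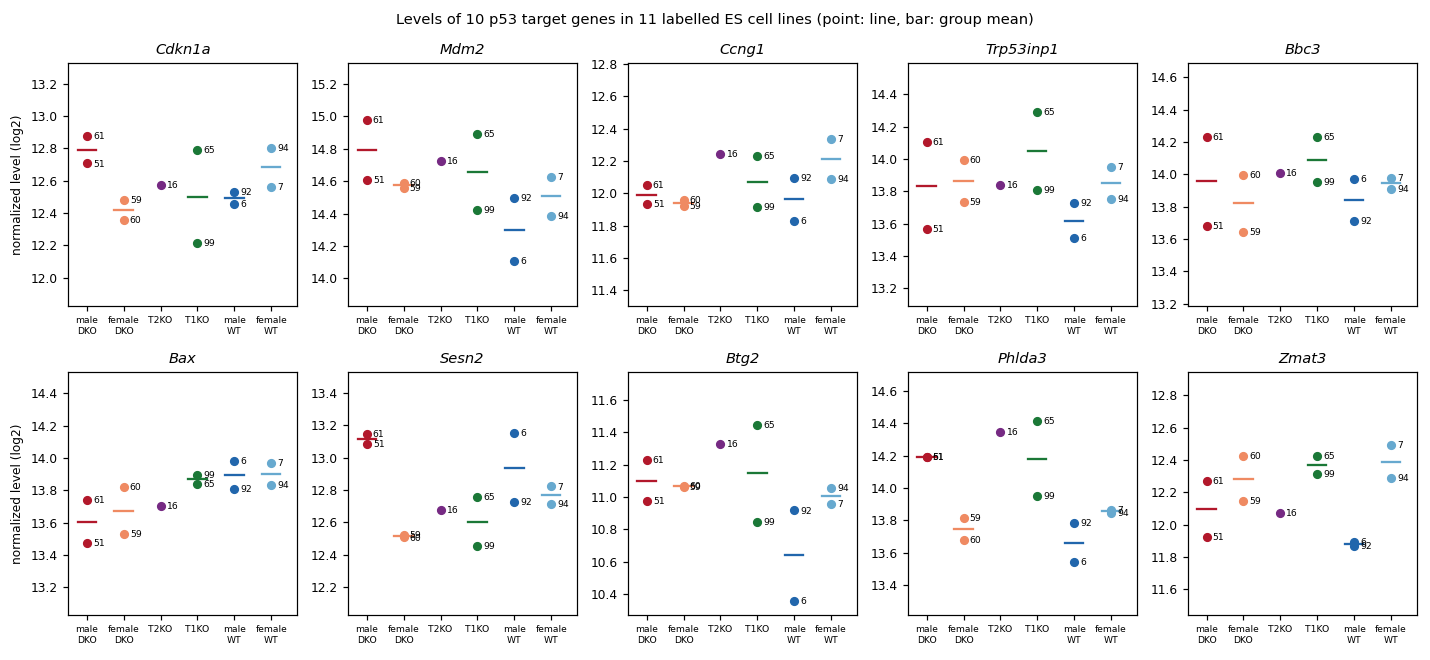
Normalized level (log2 intensity, vertical axis) of each p53 target gene in the 11 labelled lines, grouped along the horizontal axis as male DKO, female DKO, T2KO, T1KO, male WT and female WT; points are lines with their numbers, bars are group means, and every panel spans the same range. DKO and WT lines overlap in all 10 panels, and WT 6 is the lowest line for Mdm2, Ccng1, Trp53inp1, Btg2 and Phlda3.

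Cdkn1a encodes p21, the inhibitor of cyclin-dependent kinases through which p53 arrests the cycle. Its level was 12.71 and 12.88 in male DKO 51 and 61, against 12.46 and 12.53 in male WT 6 and 92. In females it was 12.36 and 12.48 in DKO 60 and 59, against 12.56 and 12.81 in WT 7 and 94. Both male DKO lines lay above both male WT lines and both female DKO lines below both female WT lines. Over the 4 pairs the log2 ratio was 0.018 (SE 0.136, 95% interval -0.33 to 0.36, limma adjusted p = 0.947), and it was -0.0083 with background fitted on all spots. The dimmer Cdkn1a probes, which were annotated to other transcripts than the main probe, did not follow it. Over the 11 lines A_55_P1986282 spanned levels of 7.69 to 9.06 and A_55_P1976204 levels of 7.51 to 8.23. The main probe spanned 12.21 to 12.88. A_55_P1986282 gave log2 ratios of -0.62, 0.81, -0.24 and 0.095 in the pairs DKO 51/WT 6, DKO 61/WT 92, DKO 60/WT 7 and DKO 59/WT 94. A_55_P1976204 gave 0.014, 0.25, 0.48 and 0.054 in the same pairs, so neither separated the sexes as the main probe did.

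Ccng1 encodes cyclin G1, which recruits a phosphatase to Mdm2. Its level was 11.93 and 12.05 in DKO 51 and 61, against 11.83 and 12.10 in WT 6 and 92, and 11.96 and 11.92 in DKO 60 and 59, against 12.34 and 12.09 in WT 7 and 94. Female DKO lines lay below female WT lines, while the male lines of both genotypes overlapped. The log2 ratio over all pairs was -0.12 (SE 0.094, limma adjusted p = 0.45), and it turned to 0.20 with median centring and 0.0057 in the log ratios of the scanner software.

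Btg2 encodes an antiproliferative protein that binds the CCR4-NOT deadenylase. Its level was 10.97 and 11.23 in DKO 51 and 61, against 10.36 and 10.92 in WT 6 and 92, and 11.07 and 11.06 in DKO 60 and 59, against 10.96 and 11.06 in WT 7 and 94. It was the only gene of the 10 with a positive log2 ratio in all 4 pairs, as 20.2% of all genes had. The ratios were 0.61 and 0.31 in the male pairs and 0.11 and 0.0077 in the female pairs. The mean of 0.26 (SE 0.114, limma adjusted p = 0.225) did not pass, except with median centring, where it was 0.54 and passed.

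Mdm2, the ligase that marks p53 for degradation and is itself a p53 target, had levels of 14.60 and 14.98 in DKO 51 and 61, against 14.11 and 14.49 in WT 6 and 92. Female levels were 14.59 and 14.56 in DKO 60 and 59, against 14.63 and 14.38 in WT 7 and 94. The male DKO lines lay above both male WT lines, whereas the female lines overlapped. Its log2 ratio over 4 pairs, 0.28 (SE 0.111, 95% interval -0.0030 to 0.56, limma adjusted p = 0.194), was the largest of the 10. It was 0.78 and past the threshold with median centring.

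The apoptotic targets did not pass, and both mean ratios were negative here and positive with median centring. Bax, a pore-forming protein of the mitochondrial outer membrane, had levels of 13.47 and 13.74 in DKO 51 and 61, against 13.98 and 13.81 in WT 6 and 92, and 13.82 and 13.53 in DKO 60 and 59, against 13.97 and 13.84 in WT 7 and 94. Within each pair the DKO line was the lower one, as for 17.1% of all genes, although DKO 60 lay above WT 92. The log2 ratio was -0.26 (SE 0.0903, 95% interval -0.49 to -0.027, limma adjusted p = 0.159), and it was 0.16 with median centring. Bbc3, which encodes the BH3-only protein Puma, had log2 ratios of -0.29 and 0.52 in the male pairs and 0.018 and -0.27 in the female pairs. Pairs of the same sex thus disagreed in sign, and the mean was -0.0046 (SE 0.153, limma adjusted p = 0.988), or 0.43 with median centring and 0.053 in the log ratios of the scanner software.

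Phlda3, a PH-domain protein that restrains Akt signalling, had levels of 14.19 and 14.19 in DKO 51 and 61, against 13.54 and 13.78 in WT 6 and 92. In females it was 13.68 and 13.82 in DKO 60 and 59, against 13.87 and 13.84 in WT 7 and 94. As for Cdkn1a, the male DKO lines lay above and the female DKO lines below the WT lines of their sex. The log2 ratio was 0.21 (SE 0.156, 95% interval -0.18 to 0.61, limma adjusted p = 0.436). Trp53inp1, a p53-induced nuclear protein linked to apoptosis and autophagy, had ratios of 0.057 and 0.38 in the male pairs and 0.044 and -0.017 in the female pairs. Its mean was 0.12 (SE 0.0861, limma adjusted p = 0.44), and its dimmer probe gave 0.15. With median centring the value was 0.54 and passed.

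Sesn2, a stress-induced protein that acts on mTORC1 signalling, had levels of 13.09 and 13.15 in DKO 51 and 61, against 13.15 and 12.72 in WT 6 and 92. Both female DKO lines, at 12.51 and 12.52 in lines 60 and 59, lay below both female WT lines, at 12.82 and 12.72 in lines 7 and 94. The mean log2 ratio of -0.037 (SE 0.134, limma adjusted p = 0.884) turned to 0.32 with median centring and 0.085 in the log ratios of the scanner software. Zmat3, an RNA-binding zinc-finger protein, had levels of 11.93 and 12.27 in DKO 51 and 61, against 11.89 and 11.87 in WT 6 and 92, and 12.42 and 12.15 in DKO 60 and 59, against 12.49 and 12.29 in WT 7 and 94. Its mean was 0.056 (SE 0.105, limma adjusted p = 0.769).

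The design pairs lines of the same sex, so male and female pairs can be set against each other. Each sex lay on a slide of its own, so sex and slide cannot be told apart in this contrast. Most of the 10 genes had higher log2 ratios in the male pairs than in the female pairs. None of these differences passed when tested gene by gene, as given below. In the male pairs 7 (DKO 51/WT 6) and 8 (DKO 61/WT 92) of 10 log2 ratios were positive, against 3 (DKO 60/WT 7) and 2 (DKO 59/WT 94) in the female pairs. Their medians were 0.080 and 0.39 in the male pairs, against -0.11 and -0.16 in the female pairs. Over all genes 51.7% to 53.1% of ratios were positive in these 4 pairs. Both male pairs lay above both female pairs for 8 of the 10 genes, against 19.1% of all genes, and both lay below for 0 of 10, against 17.9%. The exceptions were Bbc3 and Bax.

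**Figure D2:**
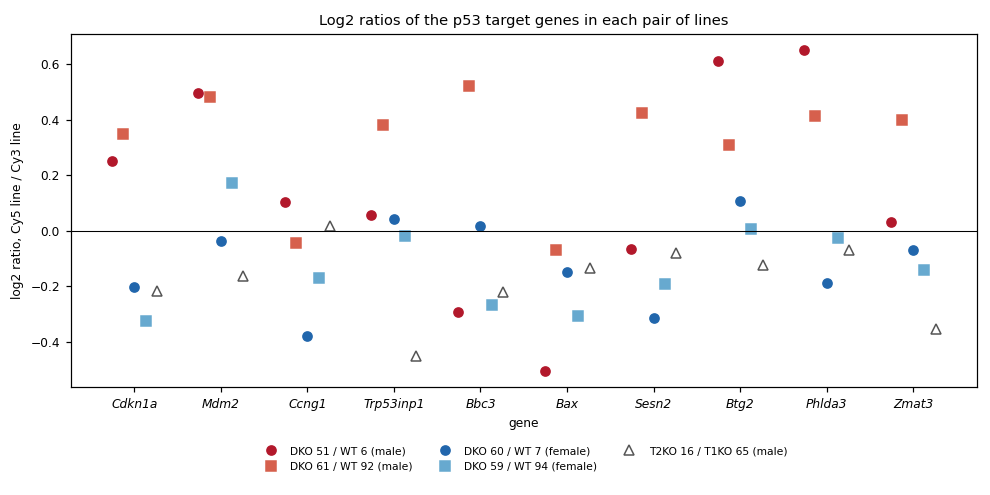
Log2 ratio (vertical axis) of each p53 target gene (horizontal axis) in the male DKO/WT pairs (red), the female DKO/WT pairs (blue) and the T2KO 16/T1KO 65 pair (open triangles). Red points lie above the blue ones for 8 of 10 genes, and 9 of 10 triangles lie below 0.

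Tested gene by gene, the male minus female difference in the DKO over WT log2 ratio passed for none of the 10 and for 0 of 20657 genes (0%). At an unadjusted p under 0.05, 3 of the 10 passed, against 1062 of all genes (5.14%). Phlda3 differed by 0.64 (SE 0.153, 95% interval 0.22 to 1.05), Cdkn1a by 0.56 (SE 0.129, 95% interval 0.21 to 0.91) and Mdm2 by 0.42 (SE 0.137, 95% interval 0.049 to 0.79), each at a limma adjusted p of 0.83. Sesn2 (0.43), Btg2 (0.40), Zmat3 (0.32), Ccng1 (0.30), Bbc3 (0.24) and Trp53inp1 (0.21) were also positive. Bax alone was negative, at -0.060, and was positive, at 0.087, with median centring. The median of the 10 was 0.36, against 0.0046 over all genes, of which 50.95% were positive. The other Cdkn1a probes gave 0.17 and -0.13, the second with the opposite sign.

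Both arms of that difference were uneven. Cdkn1a, Phlda3 and Zmat3 had positive ratios in both male pairs and negative ratios in both female pairs, as 4.05% of all genes had. Positive ratios in both male pairs were seen for 6 of the 10 (34.5% of all genes), and negative ratios in both female pairs also for 6 (32.4% of all genes). The reverse was seen once each: Bax was negative in both male pairs, as 29.7% of all genes were, and Btg2 positive in both female pairs, as 36.1% were. Feeder fibroblast markers moved the other way between male and female pairs. Of these, 1 of 24 had a positive male minus female difference, against 50.95% of all genes, with a median of -0.62. Their median log2 ratio was -0.086 and -0.43 in the male pairs, against 0.73 and -0.0061 in the female pairs. The summed feeder marker level spanned 18.09 to 18.29 in male DKO and 18.33 to 18.40 in female DKO lines, against 18.11 to 18.79 in male WT and 18.04 to 18.47 in female WT lines, and no marker was at background throughout. Primitive endoderm markers also had 1 of 10 positive male minus female differences (median -0.24), and ES cell markers 8 of 10 (median 0.11). Endoderm marker medians were 0.43 and -0.31 in the male pairs, against 0.38 and 0.38 in the female pairs. The part of these 3 marker lists in the result was not tested.

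T1KO lines were set against male WT lines to see the loss of Tet1 alone, with levels of the same dye on different slides. The median difference of the 10 genes was 0.30, against -0.0087 over all genes, and 8 of 10 were positive, against 48.4% of all genes. None passed the threshold, nor did any of the 20657 genes (0%); at an unadjusted p under 0.05 Zmat3 and Phlda3 did, against 2859 genes (13.8%). Zmat3 was 12.31 and 12.43 in T1KO 99 and 65, against 11.89 and 11.87 in WT 6 and 92, a difference of 0.49 (SE 0.119, 95% interval 0.19 to 0.78, limma adjusted p = 0.248). Phlda3 was 13.95 and 14.42 in T1KO 99 and 65, against 13.54 and 13.78 in WT 6 and 92, a difference of 0.52 (SE 0.182, limma adjusted p = 0.327). Trp53inp1 was 13.81 and 14.29 in T1KO 99 and 65, against 13.51 and 13.73 in WT 6 and 92. For these 3 genes both T1KO lines lay above both male WT lines, as for 23.1% of all genes, and no member lay wholly below (26.2% of all genes).

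The T1KO lines also differed from each other. T1KO 65 lay above T1KO 99 for 9 of the 10 genes, against 53.7% of all genes, and the exception was Bax. Cdkn1a was 12.21 in T1KO 99, the lowest of the 11 lines, and 12.79 in T1KO 65, against 12.46 and 12.53 in WT 6 and 92. Without T1KO 65 the median difference was 0.12, without T1KO 99 it was 0.47, and without WT 6 it was 0.20. In the same comparison primitive endoderm markers had a median difference of 0.43, with 10 of 10 positive, and feeder markers one of -0.17, with 6 of 24 positive. The summed primitive endoderm marker level spanned 16.85 to 17.03 in T1KO lines, against 16.28 to 16.97 in male WT lines. Their part in these values was not tested.

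In the pair T2KO 16/T1KO 65, 1 of the 10 log2 ratios was positive (Ccng1, 0.016), against 51.7% of all genes. The median was -0.15, against 0.011 over all genes. The test borrowed its spread from the DKO and WT pairs, so the single pair is assumed to vary like them. No member and no gene (0%) passed, and at an unadjusted p under 0.05 Trp53inp1 did, against 2694 genes (13%). Trp53inp1 was 13.84 in T2KO 16, against 14.29 in T1KO 65, a log2 ratio of -0.45 (SE 0.163, 95% interval -0.89 to -0.012, limma adjusted p = 0.374), and its other probe gave -0.28. Zmat3 had a ratio of -0.35 and the other 7 negative genes lay between -0.22 and -0.068. The signs depended on the normalization: with median centring all 10 were positive (0.071 to 0.51) beside a median of 0.22 over all genes, and with background fitted on all spots 4 were positive. In this pair 0 of 10 primitive endoderm markers were positive (median -0.69) and ES cell markers had a median of 0.51, whose part in the result was not tested.

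The same T2KO line was set against the male DKO lines, both in Cy5, and against the male WT lines across dyes. Both comparisons cross slides, so slide and genotype cannot be told apart in either, nor can dye in T2KO minus male WT. With 1 T2KO line in both comparisons, the spread came from the groups of 2 lines, and T2KO 16 is assumed to vary like them. Over all genes 52.2% of differences were positive in male DKO minus T2KO (median 0.015). In T2KO minus male WT 49.7% were (median -0.0023). For male DKO minus T2KO, 4 of 10 differences were positive, with a median of -0.027, and no member passed, beside 1 gene of all tested (0.00484%). Sesn2 was 13.09 and 13.15 in male DKO 51 and 61, against 12.68 in T2KO 16, a difference of 0.44 (SE 0.126, 95% interval 0.11 to 0.77, limma adjusted p = 0.336). It was the 1 member at an unadjusted p under 0.05, which 12.8% of genes reached. For T2KO minus male WT, 8 of 10 were positive with a median of 0.21, and no member passed, beside 2 genes (0.00968%). Btg2 was 11.33 in T2KO 16, against 10.36 and 10.92 in WT 6 and 92, a difference of 0.69 (SE 0.32, limma adjusted p = 0.353). Phlda3 was 14.35 in T2KO 16, against 13.54 and 13.78 in WT 6 and 92, a difference of 0.68 (SE 0.222, limma adjusted p = 0.259). The 8 positive genes lay in T2KO 16 above both male WT lines, as 38.8% of all genes did. With median centring, under which the median over all genes was 0.22, all 10 were positive and Phlda3 passed at 1.23. Feeder markers were positive for 19 of 24 in male DKO minus T2KO (median 0.24) and for 4 of 24 in T2KO minus male WT (median -0.47). ES cell markers were positive for 2 of 10 in male DKO minus T2KO (median -0.39) and for 8 of 10 in T2KO minus male WT (median 0.31). Primitive endoderm markers were positive for 8 of 10 (median 0.17) and 5 of 10 (median 0.0012) in the same comparisons, and the part of these lists in the members' values was not tested.

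**Figure D3:**
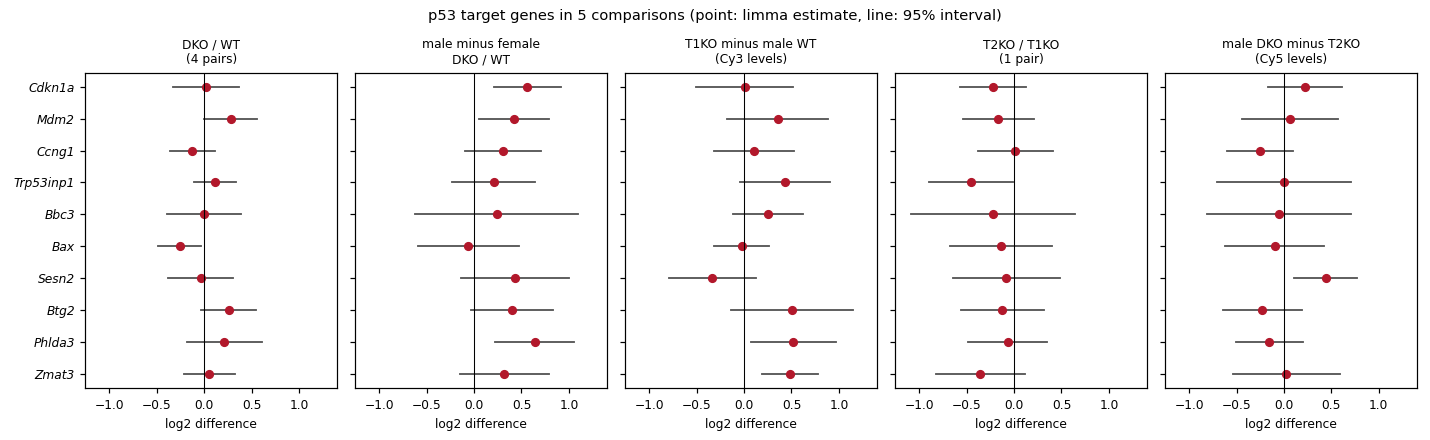
Estimates for the 10 p53 target genes (rows) in 5 comparisons (panels), with the log2 difference on the horizontal axis; points are limma estimates and lines their 95% intervals. Most male minus female estimates lie right of 0 and most T2KO/T1KO estimates left of it, and no estimate passed an adjusted p of 0.05.

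The male DKO/WT and T2KO/T1KO pairs each contrast a Tet1 knockout with a Tet1 wild-type line, in opposite dyes, so their difference divided by 2 estimates the loss of Tet1 with the dye cancelled and Tet2 balanced, if the effects of both losses add. Here too the single T2KO/T1KO pair is assumed to vary like the DKO and WT pairs. This estimate shares its arrays with the comparisons above. Its single-knockout arm rests on T1KO 65, and T1KO 99 does not enter. T1KO 65 lay above T1KO 99 for 9 of the 10 genes, against 53.7% of all genes. In the male DKO/WT arm, WT 6 was the lowest of the 11 lines for 5 of the 10 genes, against 9.95% of all genes. It was the highest for Bax and Sesn2. The part of single lines in the estimate was not tested. The estimate was positive for 9 of the 10 genes, against 50.8% of all genes, with a median of 0.27, against 0.0025 over all genes. No member and no gene (0%) passed, and 5 members (Cdkn1a, Mdm2, Trp53inp1, Btg2 and Phlda3) had an unadjusted p under 0.05, against 2130 genes (10.3%). This member count depended on the processing. With background fitted on all spots it was 2, against 1107 genes, and the member median was 0.12. In the log ratios of the scanner software it was 1, against 2050 genes, and with median centring 4, against 1992. In the authors' value table it was 6, against 1777 of 17655 genes, and also 6 with every array kept and the pair as a random block, against 2902 of 20584. Trp53inp1 was at 0.34 (SE 0.0995, 95% interval 0.066 to 0.60, limma adjusted p = 0.431), Mdm2 at 0.33 (SE 0.084, 95% interval 0.099 to 0.55, limma adjusted p = 0.396) and Phlda3 at 0.30 (SE 0.0937, limma adjusted p = 0.439). Btg2 (0.29), Zmat3 (0.28), Cdkn1a (0.26), Bbc3 (0.17), Sesn2 (0.13) and Ccng1 (0.0067) were the other positive genes and Bax (-0.076) the negative one. The sign of Ccng1 turned with median centring, with background fitted on all spots and in the authors' value table. In the same contrast 9 of 10 primitive endoderm markers were positive (median 0.40) and 2 of 10 ES cell markers (median -0.32). Their part in the result was not tested.

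Ordered by level, single lines recurred at the ends across genes. WT 6 was the lowest of the 11 lines for 5 of the 10 genes, against 9.95% of all genes, and it was the highest for Bax and Sesn2. The other male WT line, WT 92, lay above WT 6 for 6 of the 10, against 49.5% of all genes. T1KO 65 was the highest or second highest for 6 of the 10, against 19.7% of all genes. DKO 61 was highest for Cdkn1a, Mdm2 and Bbc3. The whole span over the 11 lines was 0.51 for Bax and for Ccng1 and 1.09 for Btg2. The SD between lines differed widely among the 5 groups of 2 lines, from 0.050 to 0.41 for Cdkn1a and from 4e-04 to 0.33 for Phlda3, so each gene's SD pooled over these groups was taken as its spread. Each gene's span is divided over 10 gaps between neighbouring lines, so few gaps can exceed this spread. A count of them therefore does not show whether a line stands apart. Of 100 such gaps in the orders of the 10 genes, 5 exceeded the pooled SD. They were WT 6 to WT 94 for Mdm2 (0.28), DKO 59 to T2KO 16 for Bax (0.17), WT 7 to DKO 51 for Sesn2 (0.27), WT 6 to T1KO 99 for Btg2 (0.49) and T1KO 99 to DKO 51 for Phlda3 (0.24).

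Across the 11 lines, which share slides and dyes by genotype, the levels of Mdm2 and Btg2 were the most alike of any 2 members, with a Pearson r of 0.88. Mdm2 with Trp53inp1 (0.79) and Btg2 and Mdm2 with Phlda3 (both 0.78) came next, and Sesn2 with Zmat3 was the least alike at -0.39. Among 16105 genes well above background in every labelled channel, the most like Mdm2 were Fam131a (r = 0.94), Lrrc36 (0.92) and Cacng6 (0.91). Those most like Ccng1 were Tsc1 (0.92), Spef1l (0.90) and Nmrk1 (0.90). Those most like Cdkn1a were the transcripts the files name NAP060965-1 (0.83), 2810002D19Rik (0.82) and 3300002I08Rik (0.80). These correlations are descriptions over 11 lines.

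Further genes of the p53 pathway were read from lists chosen by function, with earlier results of these data known. In DKO over WT, 0 of 25 other p53 targets passed in either direction, against 4.52% of all genes. The ratio was positive for 17, against 53.4% of all genes, with a median of 0.16. The largest ratios were those of Sesn1, a relative of Sesn2 (0.67, limma adjusted p = 0.0654), Perp, a membrane protein of desmosomes (0.63, limma adjusted p = 0.0725), and Pmaip1, the BH3-only protein Noxa (0.43, limma adjusted p = 0.239). By pair the median of these 25 targets was 0.15 and 0.16 in the male pairs, against 0.0066 and 0.13 in the female pairs. The male minus female difference was positive for 19 of 25 (median 0.20), against 50.95% of all genes. Their median was -0.15 in T2KO 16/T1KO 65, 0.27 in T1KO minus male WT, 0.018 in male DKO minus T2KO, 0.21 in T2KO minus male WT and 0.17 for Tet1 loss with the dye cancelled, with 0 of 25 past the threshold in each.

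Of 18 genes of the p53 family and its regulators, 1 rose and 0 fell in DKO over WT, with a median of -0.037. Of all genes 2.81% rose and 1.71% fell. The one that rose was Hipk2, a kinase that phosphorylates p53 (log2 ratio 0.64, SE 0.1, limma adjusted p = 0.0404), and with the mean over its probes it was 0.34 and did not pass. Trp53 itself, named here outside the rule for naming genes, was at -0.18 (SE 0.0904, limma adjusted p = 0.273). Of the male minus female differences 17 of 18 were positive, against 50.95% of all genes, with a median of 0.15, and Trp53 was at 0.036. Among 17 genes of the Bcl-2 family and caspases, 1 rose and 1 fell, beside the same 2.81% and 1.71% of all genes. Hrk, a BH3-only protein, had a log2 ratio of 1.05 (SE 0.132, limma adjusted p = 0.0272). Casp9, the initiator caspase of the mitochondrial pathway, had one of -0.44 (SE 0.0726, limma adjusted p = 0.0429).

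Of 15 mitotic and S-phase genes that p53 lowers through p21, 0 passed in DKO over WT, against 4.52% of all genes. The ratio was positive for 2, against 53.4% of all genes, and the median was -0.15. With median centring all 15 were positive with a median of 0.36, where the median over all genes was 0.19. The largest ratios were those of Top2a, a DNA topoisomerase (-0.29, limma adjusted p = 0.0611), Cdc20, an activator of the anaphase-promoting complex (-0.29, limma adjusted p = 0.108), and Ccnb1, cyclin B1 (-0.25, limma adjusted p = 0.177). By pair the median was -0.14 and -0.026 in males, against -0.23 and -0.18 in females. Of 13 cyclins, cyclin-dependent kinases and other inhibitors, 0 rose and 1 fell in DKO over WT, beside 2.81% and 1.71% of all genes. The one that fell was Ccne1, cyclin E1 (-0.41, SE 0.0647, limma adjusted p = 0.0411), which turned to 0.12 with median centring. No gene of these 4 lists passed in the other 6 comparisons, in which their medians lay between -0.11 and 0.15.

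The marker lists gave 0 rises and 1 fall in DKO over WT, where 2.81% of all genes rose and 1.71% fell. S100a6, a calcium-binding protein counted among 24 feeder fibroblast markers, fell by 0.66 on the log2 scale (SE 0.0926, limma adjusted p = 0.0337), while the list's median was 0.026. None of 10 ES cell markers passed (median -0.021), the largest ratios being those of Dppa5a (0.43), Zfp42 (-0.34) and Nanog (-0.28). None of 10 primitive endoderm markers passed (median 0.19), and Lama1 (-0.79), Gata6 (0.51) and Amn (0.47) had the largest ratios.

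**Figure D4:**
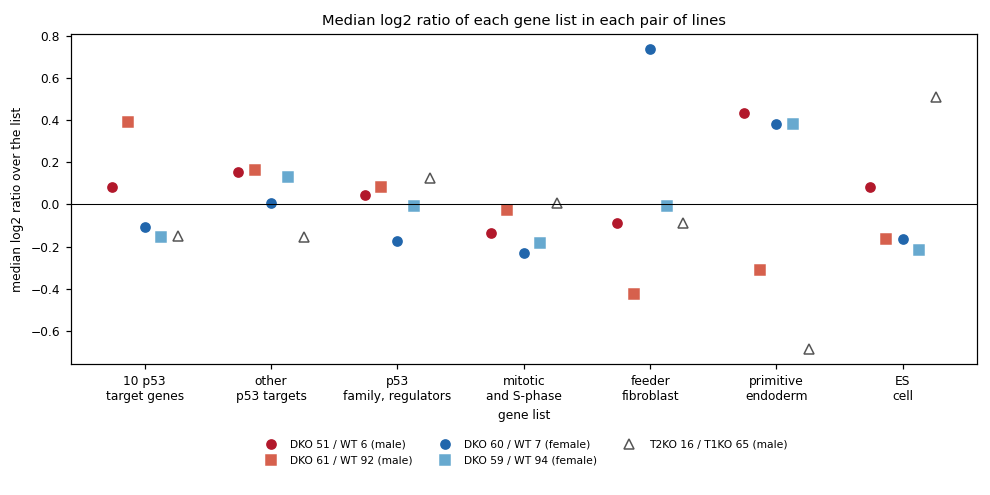
Median log2 ratio (vertical axis) of 7 gene lists (horizontal axis) in each DKO/WT pair (male red, female blue) and in T2KO 16/T1KO 65 (open triangles). The p53 target genes are at 0.080 and 0.39 in male pairs and -0.11 and -0.16 in female pairs, while feeder fibroblast markers reach 0.73 in DKO 60/WT 7 and -0.43 in DKO 61/WT 92.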

How the data were processed

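Mean spot intensity and local background intensity of Cy5 and Cy3 were deposited without normalization, per the file headers, from the software Agilent Feature Extraction 10.1.1.1. The same files hold processed intensities and the log10 ratio of Cy5 over Cy3, after that software's background subtraction, detrending and linear and lowess dye normalization, per the file headers. Per the labels' protocols, labelling started from 200 ng of total RNA. The authors' value table followed the scanner log ratios turned to log2 (r = 0.925 to 0.972, slope 0.844 to 0.881), so it was read as log2 of Cy5 over Cy3. No source used here gives its normalization or centring. Its column medians were 0.00182, 0.00354, 0.00544, 0.00499, 0.00318, 0.00751, 0.00673, 0.00566, 0.00212 and 0.00684. It served as an alternative.

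In limma 3.58.1 on R 4.3.3 (with the package data.table, version 1.17.8, and plots by matplotlib 3.10.9), background was corrected by normexp at an offset of 50, fitted after dropping gene spots below their local background (71 to 122 an array). That choice was made with earlier results of these data known. Ratios were normalized by loess within arrays and channels by Aquantile between them. Control and outlier spots were left out, and spots of a probe, and then arrays that repeat a pair of lines, were averaged. A probe entered the tests where every array of some group of genotype and sex showed it well above background (25869 probes, 20657 genes, each by its brightest probe). RefSeq accessions gave the names of 26581 of the 39429 probes.

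DKO over WT was tested on the 4 pairs (lmFit, eBayes, two-sided, Benjamini-Hochberg over all genes at 0.05). Male minus female, T2KO over T1KO and the dye-cancelled estimate were contrasts of the means of male, female and T2KO/T1KO pairs, and single channels were compared in a fit over lines. The p-values measure the spread between lines, whose number limits the precision. The Cy5 channel of the T1KO 99 arrays, which the labels exclude for its genotype, entered only the normalization. The 10 genes and all lists were chosen with earlier results of these data known. All 10 were named, and so were the list genes past the threshold or else the 3 with the largest DKO over WT ratio among those well above background on all DKO and WT arrays. Likeness to Cdkn1a, Mdm2 and Ccng1 was Pearson's r over the 11 lines. The fits of DKO over WT and of T1KO minus male WT were tested on simulated data, and the other comparisons were not.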

Additional observations from a re-analysis of the deposited data

Results flagged for a closer look

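For 3 genes the DKO over WT log2 ratio was positive in both male pairs and negative in both female pairs: Cdkn1a (male minus female difference 0.56), Phlda3 (0.64) and Zmat3 (0.32). The difference was tested, and each had an adjusted p of 0.83 by limma. Sex and slide are the same split here and cannot be told apart. The Mdm2 level of DKO 61, 14.98, stood apart from the other 3 DKO lines, with a gap to the nearest of them of 0.887 of the group's range. It was the 1 such case among 30 groups of 4 lines examined, where chance gives about 1 in 20.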

How the results depend on the processing

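Of the members' and named genes' values, 722 kept their sign and their side of the threshold under an alternative, 57 changed sign, of which only Ccne1 was past the threshold, 4 newly passed it, and 69 (Tet1, Tet2 and the 5 list genes that passed in DKO over WT) lost it in the same direction. Precision is limited by how few arrays there were: 4 pairs, no swapped dye and each sex on a slide of its own. The cause of each change below was not tested. No paired analysis was possible by replicate number because the numbers in the labels count repeat arrays of the same lines. DKO and WT lines are paired within an array, and DKO over WT was tested on these pairs.

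The DKO over WT count of 933 genes was 356 with background fitted on all spots, 529 in the authors' value table, 1468 with every array kept and the pair as a random block, and 0 with an intensity trend, with sex as a covariate, in the male pairs only, in the female pairs only (the last 2 chosen after seeing the data) and in every leave-one-out fit (0 to 0). Of the calls, 62.2% were higher, against 75.5% in the log ratios of the scanner software and 51.6% with the random block. The random block gave 9 genes for male minus female, 562 for T2KO over T1KO and 307 for the dye-cancelled estimate, which gave 3 with no filter on dim probes. For male DKO minus T2KO the count was 3 with the intensity trend, and 0 with only the lines compared and in the leave-one-out fits. For T2KO minus male WT it was 0 with all spots, with only the lines compared and in the leave-one-out fits, 4 with every probe on its own, 1 with the mean over probes and 5 with the trend.

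Median centring leaves a median over all genes of 0.19 in DKO over WT, 0.22 in T2KO over T1KO and 0.22 in T2KO minus male WT. It gave 6700 genes (92.4% higher) with 3 members past the threshold and a member median of 0.40 in DKO over WT (0.21 above all genes). In T2KO over T1KO the member median was 0.35 (0.13 above all genes). In T2KO minus male WT it gave 2818 genes (94% higher), 1 member and a member median of 0.69. Mdm2 (0.78), Trp53inp1 (0.54) and Btg2 (0.54) in DKO over WT and Phlda3 (1.23) in T2KO minus male WT passed under it. Signs turned under it in DKO over WT for Ccng1 (0.20), Bbc3 (0.43), Bax (0.16), Sesn2 (0.32) and Ccne1 (0.12), and in male minus female for Bax (0.087). They turned in T2KO over T1KO for Cdkn1a (0.23), Mdm2 (0.46), Trp53inp1 (0.090), Bbc3 (0.33), Bax (0.38), Sesn2 (0.37), Btg2 (0.26), Phlda3 (0.51) and Zmat3 (0.071). They also turned for Cdkn1a in T1KO minus male WT (-0.0025), Bax (0.32) and Sesn2 (0.18) in T2KO minus male WT, and Ccng1 in the dye-cancelled estimate (-0.0096).

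With all spots, signs turned for Cdkn1a in DKO over WT (-0.0083), in T2KO over T1KO (0.054) and in T1KO minus male WT (-0.050), for Sesn2 (0.16) and Btg2 (0.083) in T2KO over T1KO, for Zmat3 in male DKO minus T2KO (-0.096) and for Ccng1 in the dye-cancelled estimate (-0.10). The scanner software's log ratios turned Ccng1 (0.0057), Bbc3 (0.053) and Sesn2 (0.085) in DKO over WT, and the value table turned Ccng1 in the dye-cancelled estimate (-0.0066). The mean over probes turned Cdkn1a in T1KO minus male WT (-0.084) and Trp53inp1 in male DKO minus T2KO (0.031), and quantile normalization of single channels turned Cdkn1a in T1KO minus male WT (-0.0012). Male pairs alone turned Ccng1 (0.029), Bbc3 (0.11) and Sesn2 (0.18), and female pairs alone Cdkn1a (-0.26), Phlda3 (-0.11) and Zmat3 (-0.10).

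Leaving out 1 pair at a time, DKO over WT values ranged from -0.092 to 0.13 for Cdkn1a, -0.18 to 0.091 for Bbc3, -0.059 to 0.12 for Zmat3 and -0.19 to 0.055 for Sesn2. Leaving out 1 line at a time, T1KO minus male WT ranged from -0.28 to 0.30 for Cdkn1a, -0.049 to 0.27 for Ccng1, -0.11 to 0.062 for Bax and 0.12 to 0.47 for the member median. Male DKO minus T2KO ranged from -0.27 to 0.27 for Trp53inp1, -0.33 to 0.22 for Bbc3, -0.23 to 0.035 for Bax, -0.12 to 0.25 for Mdm2, -0.15 to 0.20 for Zmat3 and -0.19 to 0.21 for the member median.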
